A study of Mus musculus with 6 samples.

Results

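The locus of Ddc and Grb10 on mouse chromosome 11 held 28 of the 75169 regions of accessible chromatin found in fed and fasted liver. Its members are all merged regions that overlap the window from 11690000 to 11970000 (mm9, chromosome 11), a stretch of 280 kb. Livers came from C57BL/6 mice, an inbred laboratory strain, and sequencing of DNase I-cut DNA mapped their hypersensitive sites in 3 samples of mice with food at all times (fed) and 3 of mice without food for 24 h (fasted). Both groups were killed at the same hour, at the start of the light phase, and the labels name no engineered allele or drug in either. The labels number the replicates but do not say that each was a separate animal, so spreads and standard errors cover these samples and may be partly technical. DNase I cuts DNA that is not wrapped tightly, and a hotspot is a place where cuts pile up, as at promoters and enhancers. The window was chosen by position, and with the result known that 1 of its regions was among those whose maximum tag density rose most in fasted against fed livers. All changes between the groups given here are therefore a description of the locus, and no test of them is offered as support.

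Ddc encodes aromatic L-amino acid decarboxylase, which turns L-DOPA into dopamine and 5-hydroxytryptophan into serotonin. Grb10 encodes an adaptor protein that binds the activated insulin and IGF1 receptors and dampens their signalling, and it is an imprinted gene, expressed from the maternal copy in most tissues and from the paternal copy in neurons. Insulin falls and glucagon rises in the blood of a fasting animal, and the liver turns from storing glucose to releasing it. In the RefSeq gene order the pair lies side by side between Fignl1 and Cobl, with both genes read from the minus strand, so that higher coordinates lie upstream. That order comes from GRCm38.p6, another build than that of the hotspots, so no region was placed in an exon, intron or promoter. The regions are named by their mm9 coordinates, as the files give them. Without an mm9 annotation, regions at marker genes of hepatocytes or other liver cells could not be looked up, and neither could regions at other genes of amine synthesis or insulin signalling. A bulk liver mixes cell types, so a change within a cell type and a change in the share of cells cannot be told apart here.

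The start sites of the pair differ widely in base composition, which is why their sequences are shown. Each line gives the bases of a RefSeq promoter window (GRCm38.p6, minus strand, 5′ to 3′), from 250 bases before a start to 50 after it, with matches to the searched motifs in capitals.
Ddc start 1: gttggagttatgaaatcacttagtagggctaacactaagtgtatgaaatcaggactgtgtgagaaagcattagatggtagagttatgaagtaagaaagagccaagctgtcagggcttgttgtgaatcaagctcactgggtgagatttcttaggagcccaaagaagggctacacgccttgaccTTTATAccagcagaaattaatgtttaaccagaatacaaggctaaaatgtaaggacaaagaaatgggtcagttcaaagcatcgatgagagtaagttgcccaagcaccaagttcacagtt
Ddc start 2: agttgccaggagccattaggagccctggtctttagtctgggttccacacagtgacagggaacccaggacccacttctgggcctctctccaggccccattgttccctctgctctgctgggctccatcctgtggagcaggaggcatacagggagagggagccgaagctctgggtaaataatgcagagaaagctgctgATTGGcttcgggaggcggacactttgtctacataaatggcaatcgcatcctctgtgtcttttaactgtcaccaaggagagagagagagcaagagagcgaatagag
Grb10 start 1: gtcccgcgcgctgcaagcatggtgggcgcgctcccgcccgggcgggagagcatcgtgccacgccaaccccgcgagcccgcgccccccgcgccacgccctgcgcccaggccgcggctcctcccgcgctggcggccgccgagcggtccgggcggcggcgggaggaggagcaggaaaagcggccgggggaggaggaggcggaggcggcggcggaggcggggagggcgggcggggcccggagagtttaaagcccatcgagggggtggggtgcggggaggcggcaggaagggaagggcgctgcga
Grb10 start 2: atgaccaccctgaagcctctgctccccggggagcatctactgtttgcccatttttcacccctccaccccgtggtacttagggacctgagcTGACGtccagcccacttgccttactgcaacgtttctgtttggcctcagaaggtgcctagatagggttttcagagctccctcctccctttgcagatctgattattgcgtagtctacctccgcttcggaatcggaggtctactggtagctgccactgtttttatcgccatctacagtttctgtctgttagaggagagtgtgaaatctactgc
The Grb10 start 1 window holds 45 CpG dinucleotides and is 80% G and C, and 98.05% of 32544 mouse promoter windows hold fewer CpGs. Grb10 start 2 holds 9 CpGs, Ddc start 1 holds 2 and Ddc start 2 holds 5, against a median of 7 over all windows. On both strands the search covered TGACG (part of the cAMP response element), TGTTTAC (forkhead factors), TGTTCT (an arm of the glucocorticoid receptor site), GTTAAT (an arm of the HNF1 site), CCAAT and TATAAA. None of these overlapped another in the printed windows. Ddc start 1 holds TATAAA on the opposite strand at base 183 of the window, a match found in 13.57% of all windows. Ddc start 2 holds CCAAT on the opposite strand at base 196 (37.36% of windows), and Grb10 start 2 holds TGACG at base 91 (20.91%). No match to TGTTTAC (3.66% of windows), TGTTCT (18.92%) or GTTAAT (7.13%) is in these 4 windows, which says nothing about binding elsewhere. The sequences of the accessible regions themselves were not used here.

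Accessible regions were dense along the locus and spanned a wide range of heights. The window of equal length just before it held 8 regions and the one just after it 10, against the 28 of the locus. Of the 28, 15 (53.57%) were called in all 6 libraries, close to the 49.28% of all regions. Heights are given as maximum tag density, the tallest pile of tags in a region, in the authors' units. Over these 15 shared regions the mean density of the 6 libraries ran from 10.6 to 88.9 with a median of 29.8, where all 37044 shared regions of the genome had a median of 23.7. Their widths ran from 700 to 1800 bp, with a median of 1030 bp against 1054 bp genome-wide. In every library each called region consisted of a single hotspot. Regions thinned out at the far end: a gap of 50.1 kb preceded the last member (11925399 to 11926526), and the next region beyond it lay 146.9 kb away, outside the window. Just outside the window on the other side, a region at 11688335 to 11689135 had densities of 29.4, 41.6 and 29.3 in fed and 30.9, 26.8 and 22.7 in fasted libraries. The first region past the far edge, 12073419 to 12073750, was called in 2 fed libraries, at 6.00 and 3.66.

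**Figure D1:**
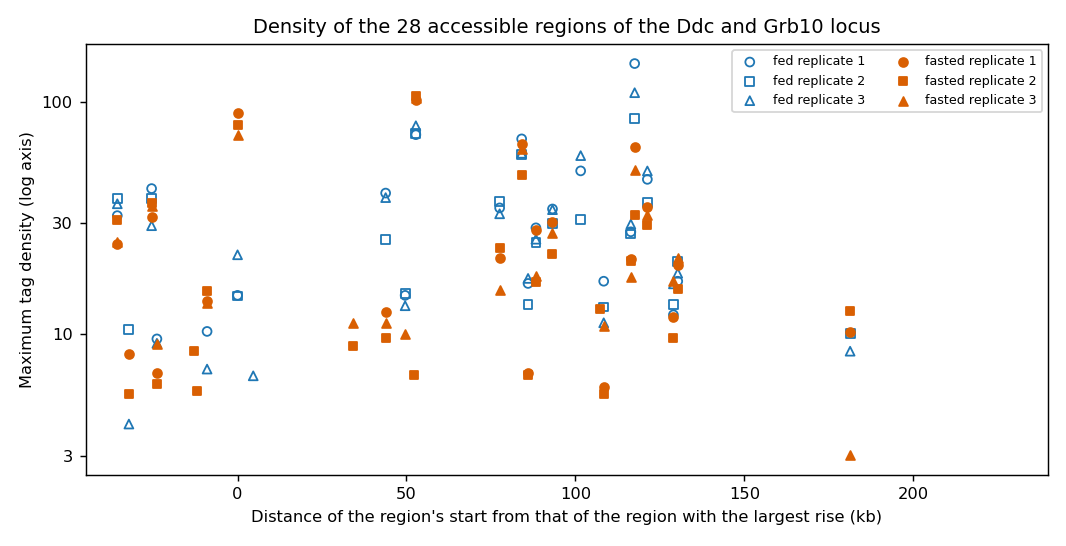
Maximum tag density (log axis) of the 28 regions of the locus in each library, against the distance in kb of each region's start from that of the region with the largest rise. Open symbols are fed and filled symbols fasted libraries, and a library without a call has no symbol. At 0 kb the fasted libraries sit far above the fed ones, and the region near 102 kb has fed symbols only.

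Depth differed between libraries of a group. In each library 100% of the maximum densities were whole multiples of 1 step, within 0.05 step. If 1 step is 1 tag, depth relative to the shallowest library (fed replicate 2) was 1.02 and 1.64 in fed replicates 1 and 3. It was 1.32, 1.90 and 1.24 in fasted replicates 1 to 3. The hotspot lists held 49682 to 63476 entries, the longest from the deepest libraries, fasted replicate 2 and fed replicate 3.

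Fasting went with a mixed picture at the locus, with 1 strong rise, 1 modest rise, 4 falls and a site called in fed livers only. Among the 15 shared regions, 2 were higher in fasted livers past the threshold of the genome-wide fit (limma, Benjamini-Hochberg adjusted p under 0.05), as were 7.89% of all shared regions. Another 4 were lower past it, where 7.84% of all shared regions were, and 9 did not pass. Together 6 of the 15 passed, against 15.7% genome-wide. The contrast that chose the locus is the one counted, so nothing is read from these shares. Changes are on the log2(density + 1) scale, fasted minus fed, with the median of the shared regions set to 0 in every library. The median change of the 15 was -0.28, against 0.03 over all shared regions, and 11 of the 15 were negative, against 45.76% of all shared regions. On centred densities the groups did not overlap at 2 regions with fasted above (16.8% of all shared regions) and 6 with fed above (14.6%), together 8 of the 15 against 31.4%.

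The region with the largest change lies at 11744103 to 11745705. Maximum tag densities there were 14.7, 14.6 and 21.97 in the fed libraries and 89.4, 79.3 and 72.0 in the fasted ones. The lowest fasted library stood far above the highest fed library, and fed replicate 3 was the highest of its group. The means were 17.1 ± 4.22 and 80.2 ± 8.70 (SD, n = 3 each), a ratio of 4.69, and the log2 change was 2.26 (SE 0.20), the tenth largest rise genome-wide. In tags these heights were 40, 39 and 96 in fed and 315, 402 and 238 in fasted libraries. These are as counted, from libraries of unequal depth. Counting alone gives the highest fed height, 96 tags (fed replicate 3, relative depth 1.64), a 95% Poisson interval of 77.8 to 117.2. The lowest fasted height, 238 tags (fasted replicate 3, relative depth 1.24), has one of 208.7 to 270.2. Each height is a maximum over positions, so these intervals are rough. The locus was chosen with its rise known, so they are no support for it. The average tag density of the same hotspot moved alike, from 6.28, 6.65 and 8.38 to 33.1, 28.6 and 26.6. By group means it was the third lowest of the 15 shared regions in fed livers and the second highest in fasted livers.

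The second region that rose was the tallest of the locus by its mean over all libraries, at 11796875 to 11798674, and also the widest (1800 bp). Densities were 72.1, 72.7 and 78.7 in fed and 101.3, 105.4 and 103.5 in fasted libraries. The spread within each group was small and the groups stood apart. The means were 74.5 ± 3.68 and 103.4 ± 2.05 (SD, n = 3 each), a ratio of 1.39, with a log2 change of 0.54 (SE 0.14). This site, 52.8 kb from the strong rise, was already tall in fed liver. A short region ending 43 bp before it, 11796358 to 11796831, was called in fasted replicate 2 alone, at 6.71.

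Between the risen sites lay the region with the largest fall, 11787934 to 11788947, 42.2 kb past the end of the first and 7.93 kb before the second. Its densities were 40.5, 25.5 and 38.7 in fed and 12.5, 9.67 and 11.2 in fasted libraries. All fasted libraries lay below the lowest fed one, fed replicate 2. The mean went from 34.9 ± 8.18 to 11.1 ± 1.41 (SD, n = 3 each), 3.14 times higher in fed than in fasted livers, with a log2 change of -1.47 (SE 0.21). Set side by side, the first risen region was 2.04 times lower than this one in fed livers and 7.22 times higher in fasted livers, by the ratio of group means.

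**Figure D2:**
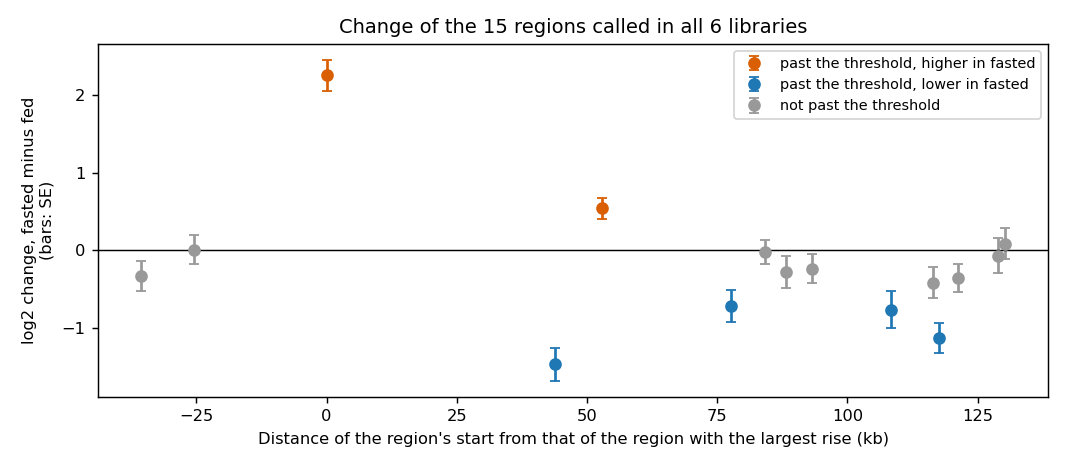
Change in log2 density (fasted minus fed, with its standard error) of the 15 regions called in all 6 libraries, against the distance in kb from the region with the largest rise. Orange points passed the threshold as higher (2.26 and 0.54), blue points as lower (-0.72 to -1.47), and grey points did not pass. The 4 falls lie on the higher-coordinate side of the strong rise.

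A run of regions further along held the other falls, within 73.7 kb of the first. The region at 11861629 to 11863090 was the tallest of the locus in fed livers, with densities of 145.6, 84.7 and 109.2, and 64.1, 32.6 and 50.9 in fasted livers. Replicates differed by up to 1.97 times within a group, but the groups did not overlap. Its mean was 113.2 ± 30.7 in fed and 49.2 ± 15.8 in fasted livers (SD, n = 3 each), 2.30 times higher in fed, and the log2 change was -1.13 (SE 0.20). The neighbour that ends 144 bp before it, 11860507 to 11861484, had 27.6, 27.0 and 29.8 in fed and 21.0, 20.7 and 17.6 in fasted livers. The groups stood apart there too, but its log2 change of -0.42 (SE 0.20) did not pass. On the other side, 2306 bp away, the region at 11865397 to 11866426 had a log2 change of -0.36 (SE 0.18) and did not pass either.

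Both remaining falls were smaller, and their calls depended on which replicates were kept. At 11821670 to 11822643 densities were 34.9, 37.1 and 33.0 in fed and 21.3, 23.5 and 15.4 in fasted livers, with a log2 change of -0.72 (SE 0.21). The groups were apart and the 3 fed libraries close together. At 11852471 to 11853170, the lowest of the shared regions by its mean, densities were 16.9, 13.1 and 11.2 in fed and 5.96, 5.53 and 10.9 in fasted livers, with a log2 change of -0.77 (SE 0.24). There fasted replicate 3 came close to fed replicate 3, and the heights of 21 to 49 tags carry a large counting error. Neither call held on leaving out fed replicate 1, fed replicate 2 or fasted replicate 1 (changes of -0.74, -0.66 and -0.75 for the first region and -0.64, -0.77 and -0.64 for the second). The first was also lost without fed replicate 3 (-0.73) or fasted replicate 3 (-0.49), and the second without fasted replicate 2 (-0.66).

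**Figure D3:**
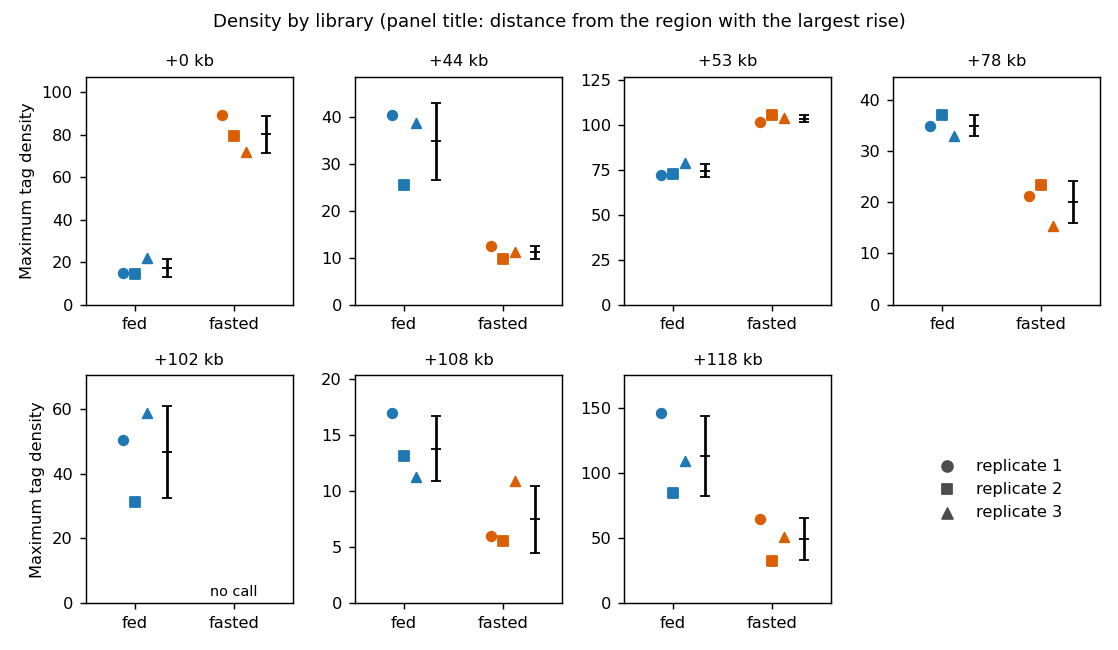
Maximum tag density by library for the 6 shared regions past the threshold and the region called in fed libraries only, each panel titled by its distance from the region with the largest rise. Symbols are replicates, bars the mean and SD of 3 libraries, and every axis starts at 0. The regions at 0 and 53 kb are higher in all fasted libraries and the others lower or without a call.

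The strongest contrast in calls was a region at 11845657 to 11846667. It was called in all 3 fed libraries, at 50.4, 31.1 and 58.6 (mean 46.7 ± 14.1, SD, n = 3), and in no fasted library. These heights equal 137, 83 and 256 tags. Regions called in all fed and no fasted libraries made up 1.57% of all regions, and nothing is read from the 1 of 28 here. A missing call leaves the density unknown and is not a density of 0. The fasted libraries did call weaker regions at this locus, down to 5.96, 5.53 and 3.03 in replicates 1 to 3. No member was called in all fasted and no fed libraries (1.17% of all regions were).

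The other 12 members lacked a call in 1 to 5 libraries and were weak, at 3.03 to 17.4. Of these, 5 were called by a single library, 4 of them by fasted replicate 2 and 1 by fed replicate 3, the deepest libraries. A region at 11793704 to 11794291 had 14.7, 14.99 and 13.3 in fed livers and a call in fasted replicate 3 only, at 9.99. At 11830084 to 11831105 the fed libraries had 16.5, 13.5 and 17.4 and fasted replicates 1 and 2 had 6.81 and 6.71, with no call in the third. At 11735078 to 11735915, 8187 bp before the strong rise, the fasted libraries had 13.9, 15.4 and 13.6. Fed replicates 1 and 3 had 10.3 and 7.09 there, with no call in fed replicate 2. Each of these regions lacks calls in a group and was named after its values were seen, so no order of the groups is read. The share of such regions genome-wide was not counted. At 11778317 to 11778816 only fasted replicates 2 and 3 had a call, at 8.88 and 11.2. Groups overlapped at 11711946 (fed replicates 2 and 3 at 10.5 and 4.12, fasted replicates 1 and 2 at 8.23 and 5.53). They overlapped too at 11925399 (fed replicates 2 and 3 at 10.1 and 8.47, fasted replicates at 10.2, 12.6 and 3.03). At 11720233 fed replicates 1 and 3 had 9.56 and 9.15, and the fasted libraries 6.81, 6.12 and 9.08. These regions were outside the main fit, which needs a value in each library. With missing values set to the lowest density of the library, 6 of these 12 could be fitted and none passed. Their changes ran from -2.36 to 1.76, with standard errors of 0.57 to 0.88. Both depend on the filled-in values, so none passing does not show an absence of change. Leaving out fed replicate 2, which had no call there, let the region at 11735078 be fitted. It passed narrowly, with a log2 change of 0.76 (SE 0.25, limma adjusted p 0.047). The region at 11720233, let in the same way, did not pass (-0.24, SE 0.25). Both were fitted only because the library without a call was dropped, so nothing is read from the pass.

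The 9 shared regions that did not pass had log2 changes between -0.42 and 0.08. The tallest, 11828193 to 11829344, had 69.1, 59.2 and 59.96 in fed and 65.8, 48.5 and 62.4 in fasted livers, with the groups mixed (log2 change -0.03, SE 0.15). It lies 5549 bp past the end of a region that fell. The region at 11718666 to 11719502 had 42.3, 38.2 and 29.3 in fed and 31.8, 36.5 and 35.7 in fasted livers, again mixed (0.01, SE 0.19). At 11708509 to 11709653, the first member, the change was -0.34 (SE 0.20), and the pair at 11873099 and 11874380 stood at -0.07 and 0.08 (SE 0.22 and 0.20). A change that misses the threshold does not show that these sites were alike in both states: standard errors ran from 0.15 to 0.22, and the change of -0.42 at 11860507, 2.12 times its standard error, still missed it.

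**Figure D4:**
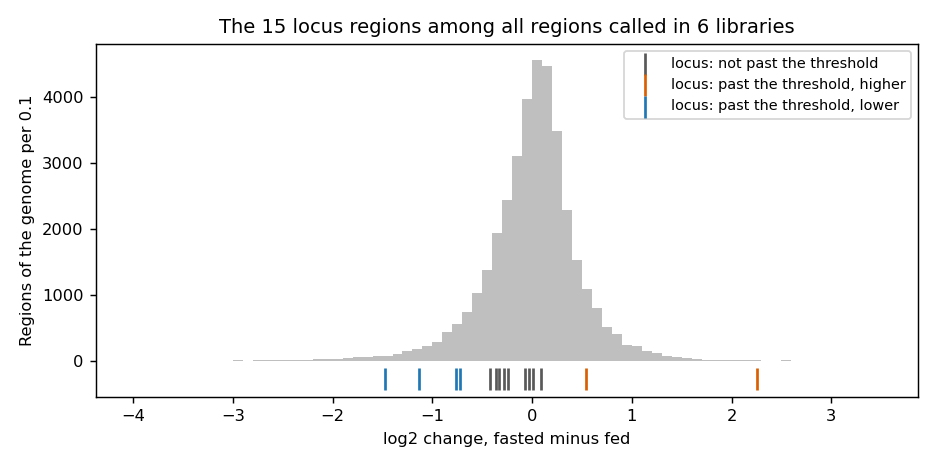
Log2 changes (fasted minus fed) of all 37044 regions called in 6 libraries, as the number per 0.1 (grey), with the 15 regions of the locus as ticks below the axis. Orange and blue ticks passed the threshold as higher and lower. Most ticks lie left of 0, and the one at 2.26 lies in the far right tail.

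The members most like the strong rise in their course over the libraries were still far from it. Likeness was the root mean squared difference of the 6 log2 densities after each region's own mean was taken off, and 0 would be an identical course. Within the locus the nearest was the region at 11796875 (0.88), then those at 11874380 (1.12) and 11828193 (1.17). Elsewhere, where far more regions were compared, the nearest were on chromosome 13 (49077439 to 49078754, 0.21), chromosome 1 (132659846 to 132661497, 0.23) and chromosome 7 (126990666 to 126991730, 0.24). Their log2 changes were 2.08, 2.00 and 1.92. Regions on chromosome 10 (43461763 to 43463111, 0.25) and chromosome 11 (76521282 to 76524220, 0.27) followed. This measure mainly ranks the size of the change, since the 6 libraries fall into the groups compared.

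The neighbouring windows of equal length held few regions. In the window after the locus 5 of 10 (50%) were called in all 6 libraries, and in the window before it 1 of 8 (12.5%). The share was 53.57% at the locus and 49.28% of all regions. Of the 5 shared regions in the window after the locus, 2 were higher past the threshold (7.89% of all shared regions were). These were 12090279 to 12091074 (log2 change 1.15, SE 0.25) and 12098685 to 12099553 (0.81, SE 0.24). In the same window 0 were lower (7.84% of all shared regions), and also 0 at an unadjusted limma p under 0.05. The region at 12152268 to 12153176 had a negative change that did not pass (-0.46, SE 0.22). The window before the locus held 1 shared region, whose change of -0.23 (SE 0.21) did not pass. Whether the windows differ from the locus was not tested.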

How the data were processed

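DNase I hypersensitive sites of 3 fed and 3 fasted livers were taken from 1 hotspot list per library, so replicates were not pooled. An aligner and a hotspot caller, not given in the sources used here, made these lists. Per the labels' protocols, DNA fragments of 100 to 500 bp were purified from liver nuclei digested with 40 U/ml of DNase I. CASAVA 1.8 and the build mm9 are named in the submitters' processing notes. Per the file headers, each hotspot carries a maximum and an average tag density, a coverage signal on a scale that no source used here states. The score of each hotspot is a z-score that the authors computed, per the file headers, and it was not used. The p-value that the authors deposited for each hotspot was not used either.

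Hotspots of chromosomes 1 to 19 and X sharing at least 1 bp were merged over the 6 lists, and a region's density in a library is its highest maximum there. The 37044 regions called in all 6 libraries were fitted together with limma 3.58.1 (R 4.3.3; mean-variance trend) on log2(density + 1), each library centred on its median, with Benjamini-Hochberg adjustment over all of them (threshold 0.05). Tables and plots used Python 3.11.15, numpy 2.4.6, pandas 2.3.3, scipy 1.17.1 and matplotlib 3.10.9. The fit was run on simulated data with known changes and the same noise for every region, which does not check the mean-variance trend. Hotspot lists hold no counts, so tag heights assume that a density step is 1 tag, and the Poisson intervals cover counting error only.

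The members and lists were chosen with earlier results of these data known. The regions given in full are those past the threshold, the 4 tallest and those called in all libraries of 1 group only. The other members named were added after their values were seen. The alternatives tried were pseudocounts of 0.1 and 10, densities without centring, quantile normalization, average density, regions called in at least 3 libraries, the upper 50% by density, no trend, the replicate block, merging within 150 bp, a cover of at least 50%, lists of equal length (49595 hotspots) and leaving out each replicate. Regions at pathway and marker genes were not analysed here, for want of an mm9 annotation.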

Additional observations from a re-analysis of the deposited data

How the results depend on the processing

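The strong rise at 11744103 passed under all 16 alternatives to the fit (1.79 to 2.47), as did the rise at 11796875 (0.42 to 0.62) and the fall at 11861629 (-1.33 to -0.92). At 11796875 the pass was at times narrow: its limma adjusted p was 0.01 in the main fit and 0.049 with no mean-variance trend. The fall at 11787934 passed in the 15 fits that held it (-1.66 to -1.02). Of 235 values of single regions, 221 kept their side of the threshold, 13 lost their call and 0 passed the opposite way. The lost calls were all at 11821670 and 11852471, and the cause was not tested. The number of higher regions was 2 in 15 of the 16 alternatives and 3 without fed replicate 2. There the region at 11735078 could be fitted, since the library without a call at it was left out. Leaving out each replicate gave 2 to 4 lower regions; their number was 2 in the upper 50% by density, where 10 members were tested, and 3 or 4 otherwise. With no filter on calls the 3 were other regions in part: 11821670 (-0.65) and 11852471 (-0.69) lost their calls, and 11845657, called in fed livers only, passed (-4.79), a direction that the filled-in values fix. Quantile normalization lost 11852471 (-0.68). In that upper 50% the median density was 37.0, against 29.8, since the weak members were dropped. Merging within 150 bp joined the region at 11860507 to that at 11861629, and the joined region passed (-1.14). Fed and fasted libraries of the same number showed no sign of pairing (their deviations from the group means correlated at -0.067, -0.030 and -0.167). With the replicate block 2 regions were higher and 3 lower, and the call at 11852471 was lost. Members called in fed livers only numbered 2 with a cover of at least 50%, and 1 to 2 on leaving out each replicate. Over all 75169 regions such calls numbered 1377 with that cover and 1279 to 2403 on leaving out each replicate. The main lists gave 1183. Members called in fasted livers only numbered 0 to 1 on leaving out each replicate, and 992 to 2009 of all regions were so called. Nothing is read from these counts. The weak members' heights of few tags carry a large counting error, and whether depth set their calls was not tested.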
